A study of Mus musculus with 12 samples.

Results

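Stat2, Stat3, Stat4, Stat5a, Stat5b and Stat6 encode signal transducers and activators of transcription (STAT proteins), and their transcripts were followed in CD4+ T cells responding to inhaled allergen in mice with or without IL-6. The 6 genes were chosen by family membership, with earlier results of these data known, from 40840 gene symbols listed for each library. All 6 passed the low-count filter that left 13570 genes for testing. The cells were CD4+ OTII donor cells, whose transgenic T-cell receptor recognizes an ovalbumin (OVA) peptide, transferred into C57BL/6 wild-type (WT) or Il6-/- recipients. Recipients of both genotypes were sensitized through the nose with house dust mite (HDM) extract containing endotoxin, together with LPS-free OVA, and donor cells were sorted from the lung-draining mediastinal lymph nodes on Day 3 or Day 5. The 4 groups were therefore WT Day 3, Il6-/- Day 3, WT Day 5 and Il6-/- Day 5, with 3 samples each. Only the recipients lacked Il6: the donor cells carried an intact Il6 gene in every group, so that reads on Il6 (0 to 5 per library) do not check the labels. No unsensitized or low-endotoxin group was included. The sample labels name blood as the tissue, whereas the series description names the mediastinal nodes, and the description says that days are counted differently in the manuscript, so Day 3 and Day 5 are used here as in the labels. The ages of the animals and the number pooled per sample are not given in the sources used here, and p-values therefore measure the spread between these samples, which may be in part technical.

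STAT proteins wait in the cytoplasm until a cytokine receptor brings Janus kinases (JAKs) together, are then phosphorylated on a tyrosine, pair up and enter the nucleus as transcription factors. In CD4+ T cells STAT3 acts downstream of IL-6, IL-21 and IL-27, STAT5A and STAT5B downstream of IL-2 and IL-7, STAT4 downstream of IL-12, STAT6 downstream of IL-4, and STAT2 with IRF9 downstream of type I interferon. Several STAT genes are themselves induced by cytokines, so that the amount of transcript can change along with signaling, although RNA-seq measures the transcript and not the phosphorylated protein.

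The members lie on 3 chromosomes. On GRCm39, Stat4 is at chr1:52026307-52151423 on the forward strand, Stat6 at chr10:127477821-127496862 and Stat2 at chr10:128106352-128128735, both forward. Stat5b (chr11:100671556-100741589, reverse strand), Stat5a (chr11:100750177-100776065, forward) and Stat3 (chr11:100775924-100830450, reverse) sit side by side within 158.895 kb. Stat5b and Stat5a point away from each other across a gap of 8587 bases, and Stat5a and Stat3 run toward each other and share 142 bases of exon at their ends. Reads had been counted without strand, so a read in those 142 bases cannot be given to one gene, and HTSeq leaves such reads out as ambiguous where both genes are annotated.

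**Figure D1:**
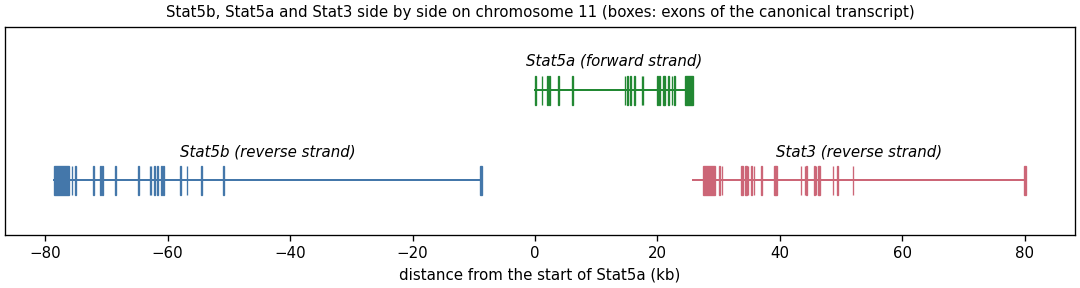
Positions of Stat5b, Stat5a and Stat3 along chromosome 11 in kb from the start of Stat5a. Thin lines are whole genes, boxes are exons of the canonical transcript, and the gap between Stat5b and Stat5a is 8587 bases. The right end of Stat5a meets the left end of Stat3, whose shared 142 bases belong to longer Stat3 transcripts than the one drawn.

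How well a 50-base read can be assigned differed among the members. The coding sequences of Stat5a and Stat5b were 90.7% identical, while those of all other pairs were 58.3% to 65.5% identical. Of all 50-base words in the canonical Stat5a transcript, 17.9% also occurred in another member, and for Stat5b 12% did; for Stat2, Stat3, Stat4 and Stat6 no word did. The longest run without a difference between Stat5a and Stat5b spans 324 bases, positions 571 to 894 of either coding sequence counted from the first base of the start codon, and its first 150 bases (positions 571 to 720) are given here because no 50-base read inside the run can be assigned to either gene of the pair.

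Stat5a and Stat5b, start of the shared coding run (GENCODE vM39 transcripts, GRCm39): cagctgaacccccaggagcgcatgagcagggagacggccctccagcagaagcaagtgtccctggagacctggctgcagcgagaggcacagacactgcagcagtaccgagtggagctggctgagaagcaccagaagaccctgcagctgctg

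Other genes overlap the members as well. Words of Stat4 were shared with the long noncoding genes Gm28177 and Gm31812 (42.4% of its words), words of Stat3 with Gm46295 (6.57%) and words of Stat6 with Nab2, a corepressor of EGR factors (0.739%). In these libraries Gm31812 held 6 to 31 counts and Gm46295 58 to 314, against 1420 to 2744 for Stat4 and 5558 to 8479 for Stat3. Counting leaves out reads in a stretch shared by genes of its annotation. Gm28177, whose exons share 1033 bases with Stat4, is not among the counted symbols, so reads in that stretch were not shown to be left out of Stat4. Stat2 was the one member with no shared word at all.

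The regions before the start sites were searched for the 2 kinds of letters that STAT complexes are known to bind. RefSeq promoters (250 bases before the start site, GRCm38.p6; the windows shown were matched base for base to GRCm39) were searched on both strands for TTTCNNTTTC, the core of the interferon-stimulated response element (ISRE) bound by STAT2 with IRF9, and for TTCNNNGAA, the core of the gamma-activated site bound by STAT pairs. The ISRE core occurred in the promoter of Stat2 and in the second of 2 listed promoters of Stat4, and in no listed promoter of Stat3, Stat5a, Stat5b or Stat6. Of all 32851 promoters 2.98% held it. The other core, found in 7.02% of promoters, occurred in none of the members' promoters. The windows around the matches are printed with the matched letters in capitals.

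Stat2, chr10:128106117-128106194, forward strand, match starting 222 bases before the start site: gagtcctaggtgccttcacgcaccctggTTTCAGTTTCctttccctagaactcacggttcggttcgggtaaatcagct
Stat4, second promoter, chr1:52047262-52047351, forward strand, match on the reverse strand starting 97 bases before the start site: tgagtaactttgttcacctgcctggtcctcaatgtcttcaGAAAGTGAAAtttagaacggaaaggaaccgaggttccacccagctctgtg

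A match of letters is a description of the sequence and does not show that a factor was bound in these cells.

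The libraries held 16125947 to 26111657 reads counted on genes (median 19727354), with TMM scaling factors of 0.944 to 1.06. CPM are read counts scaled to a common library total after that correction. Each member was covered by at least 570 reads in every library. Markers of T cells summed to between 5389 and 9658 CPM with none at 0 in any group, while the B-cell markers summed to 5.23 to 10.96 CPM and those of myeloid and dendritic cells to 10.9 to 50.5 CPM. The 7 NK and CD8 T-cell markers summed to 66.0 to 76.5 CPM in WT Day 3 and to 105 to 137 CPM in Il6-/- Day 3, with Cd8a at 0 to 32 counts and Ncr1 at 0 to 1 count. Of these markers Klrb1c (4.82 ± 0.957 to 20.9 ± 4.75 CPM, edgeR FDR = 7.7e-06) and Nkg7 (3.67 ± 1.60 to 22.7 ± 1.37 CPM, FDR = 3.7e-05) were higher in Il6-/- Day 3, while Cd8b1, the most abundant, stood at 62.7 ± 5.80 and 74.7 ± 10.1 CPM (FDR = 0.19). The part of these markers in the results below was not tested. In bulk RNA, fewer cells that hold a transcript and less of it per cell cannot be told apart.

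Levels of different genes are compared here per kilobase of the canonical transcript. In WT Day 3, Stat3 (72.2 ± 2.31 CPM per kb, SD, n = 3) and Stat6 (71.1 ± 2.79) were highest and their libraries overlapped. Next came Stat5b (54.9 ± 1.36), Stat5a (33.6 ± 0.230), Stat4 (11.4 ± 0.536) and Stat2 (9.90 ± 0.522), with no overlap between neighbors. The same order held in both Day 5 groups, without overlap between any neighbors. In Il6-/- Day 3 the top was exchanged: Stat6 stood at 74.6 ± 3.41 CPM per kb and Stat3 at 64.6 ± 0.0397, again without overlap. The same counts, which include reads outside the coding sequence, were also divided by coding length alone. This raises genes with long untranslated ends, such as Stat4 (8062 bases, of which 2247 code). It is therefore a rough check of the order and not a second measure of level. By it Stat3 came first in all 4 groups, so which of Stat3 and Stat6 leads in Il6-/- Day 3 depends on the length used. The order below Stat3 depended on it as well. By coding length Stat5b stood above Stat6 in WT Day 3 (119 and 109 CPM per kb) and WT Day 5 (110 and 103). It did so in Il6-/- Day 5 too (103 and 101), but not in Il6-/- Day 3 (101 and 114). Stat4 stood above Stat5a in WT Day 5 (59.5 and 56.1). Stat2 was the lowest member in every group by either length. The canonical length of Stat4, 8062 bases, includes 2649 bases that overlap exons of the counted gene Gm31812. Reads there may have been left out, so the level of Stat4 per kilobase of that transcript may be too low. The levels of Stat5a and Stat5b may be too low as well. Of their 50-base words 17.9% and 12% occur in another member, and reads that fit both genes were not counted.

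**Figure D2:**
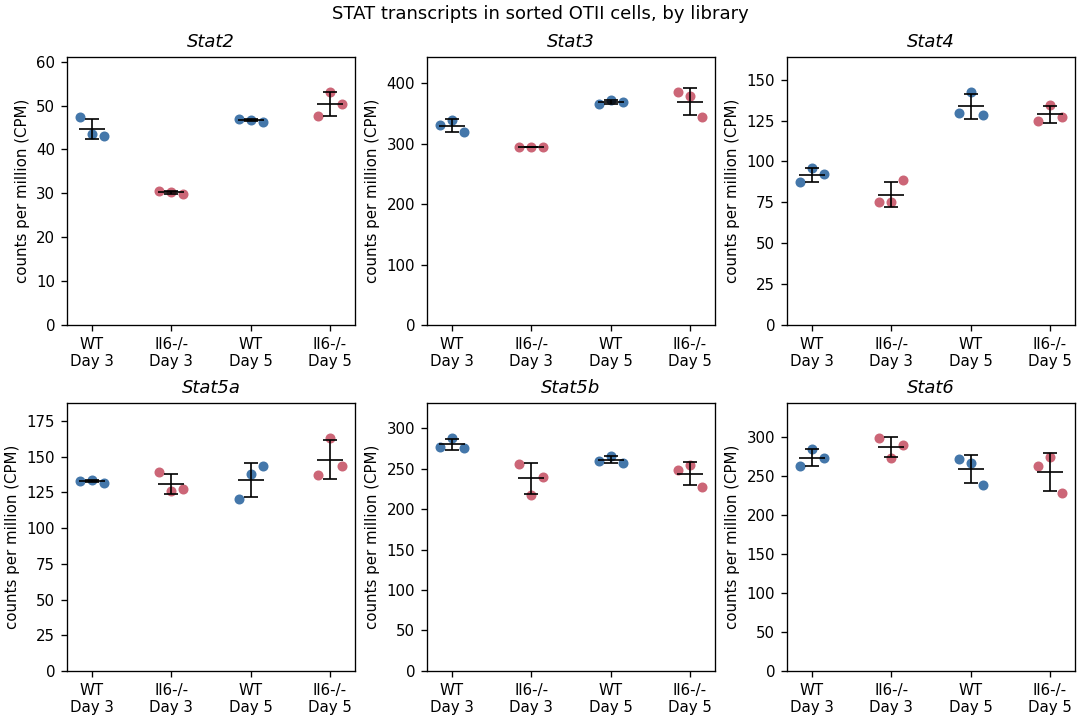
Scaled read counts (CPM) of the 6 members in each of the 12 libraries, with a panel for each gene and axes starting at 0. Points are libraries (blue WT recipients, red Il6-/- recipients), bars the mean and SD of 3 libraries. The 3 Il6-/- Day 3 libraries of Stat2 lie at 29.8 to 30.6 CPM, below all others.

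The comparison of recipients asks whether IL-6 in the host altered STAT transcripts in the responding cells. On Day 3, 1 of 6 members, Stat2, passed an FDR of 0.05 in edgeR's quasi-likelihood test, while 13.7% of all genes tested did so (6.19% lower and 7.52% higher in Il6-/-). On Day 5 no member passed, against 4.61% of all genes. The median log2FC of the members was −0.18 on Day 3 and −0.01 on Day 5, and that of all genes 0.01 on both days. No member passed with a change of at least 2-fold in any comparison. Of all genes, 2.74% did so on Day 3 and 1.14% on Day 5, 22.1% between days in WT and 25.9% in Il6-/-, and 1.38% in the interaction.

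Stat2, the interferon-specific member of the family, was lower in cells from Il6-/- recipients on Day 3 and was not lower on Day 5. The WT Day 3 libraries held 47.3, 43.4 and 43.1 CPM, and the Il6-/- Day 3 libraries 30.6, 30.2 and 29.8 CPM. The groups did not overlap, which was so of 36.2% of all genes on that day. The log2FC was −0.56 ± 0.083 (SE; edgeR, FDR = 0.00049), a level 0.676 times that in WT with a 95% confidence interval of 0.598 to 0.765. By p-value Stat2 ranked 173rd of 13570 genes. On Day 5 the WT libraries stood at 46.9, 46.8 and 46.3 CPM and the Il6-/- libraries at 47.6, 53.1 and 50.2 CPM. All Il6-/- libraries now lay above all WT libraries, as they did for 8.65% of all genes on that day, but the log2FC of 0.11 ± 0.082 did not pass (FDR = 0.52).

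The difference between the days was itself tested. The Day 5 difference minus the Day 3 difference of Stat2 was 0.67 ± 0.12 on the log2 scale (edgeR, FDR = 0.0079), with Stat2 in place 67 by p-value among all genes, of which 4.92% passed (1.8% with a higher value on Day 5). No other member passed this test (FDR = 0.34 to 0.72). Within Il6-/- recipients Stat2 rose from Day 3 to Day 5 by a log2FC of 0.74 ± 0.083 (FDR = 2.2e-06), whereas within WT recipients the log2FC was 0.06 ± 0.082 (FDR = 0.52) and the libraries overlapped. These comparisons share groups with the tests above and are not separate evidence. The Day 3 difference of Stat2 passed under every one of 23 other settings, with log2FC from −0.62 to −0.52.

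Stat4, which carries IL-12 signals and is needed for Th1 responses, changed with day. Its libraries held 87.5, 96.1 and 92.4 CPM in WT Day 3 and 130.0, 142.6 and 128.6 CPM in WT Day 5. In Il6-/- recipients they held 75.0, 75.4 and 88.6 CPM on Day 3 and 124.8, 134.7 and 127.5 CPM on Day 5. Every Day 5 library lay above every Day 3 library in both genotypes, which was so of 33.4% of all genes in WT and 33.1% in Il6-/-. The log2FC from Day 3 to Day 5 was 0.54 ± 0.083 in WT (edgeR, FDR = 5.6e-05) and 0.69 ± 0.083 in Il6-/- (FDR = 4e-06), and the difference of these changes did not pass (0.16 ± 0.12, FDR = 0.50). Between recipients Stat4 gave a log2FC of −0.21 ± 0.083 on Day 3 (FDR = 0.12, libraries overlapping) and −0.05 ± 0.083 on Day 5 (FDR = 0.79).

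The day comparisons stand against a broad background, since 56.7% of all genes passed between the days in WT and 60.5% in Il6-/-, and the median log2FC of all genes was 0.09 in each. Of the 6 members, 2 rose in WT (Stat3 and Stat4) and 3 rose in Il6-/- (Stat2, Stat3 and Stat4), and none fell. Of all genes, 29.5% rose in WT and 30.4% in Il6-/-. The members' median log2FC was 0.04 in WT and 0.25 in Il6-/-. The days also differed in other measures of the libraries. Reads on genes made up 60.2% to 62.2% of each Day 3 library and 52.5% to 56.7% of each Day 5 library, and the T-cell markers summed to 5389 to 6122 CPM on Day 3 and 8062 to 9658 CPM on Day 5. The myeloid and dendritic cell markers summed to 10.9 to 22.1 CPM in WT Day 3, 12.6 to 18.4 in Il6-/- Day 3, 18.65 to 50.5 in WT Day 5 and 19.8 to 38.0 in Il6-/- Day 5. The part of these differences in the day comparisons was not tested.

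Stat3, the main effector of the IL-6 receptor, held 330.8, 339.6 and 318.6 CPM in WT Day 3 and 294.8, 294.8 and 295.1 CPM in Il6-/- Day 3. All Il6-/- libraries were lower, which was so of 15.7% of all genes on that day, and the log2FC of −0.16 ± 0.066 did not pass (FDR = 0.12; 95% confidence interval −0.30 to −0.02). On Day 5 the WT libraries held 365.7, 372.6 and 368.7 CPM and the Il6-/- libraries 385.6, 378.7 and 345.0 CPM. They overlapped, with a log2FC of 0.00 ± 0.066 and an interval of −0.14 to 0.14. From Day 3 to Day 5 Stat3 rose in Il6-/- recipients (log2FC 0.33 ± 0.066, edgeR FDR = 0.00053). In WT the log2FC was 0.16 ± 0.066 with an FDR of 0.046, which is close to the threshold: it was 0.11 with RLE scaling, 0.079 with DESeq2, 0.53 without a low-count filter and 0.093 in the 6 WT libraries alone. The WT call was kept in 6 of 10 fits under another scaling, filter, tool or design, the fits just named being the others. With the counts of Stat3 and Stat5a summed, the FDR was 0.12. Of the 12 fits that left out a library, the 2 without Il6-/- Day 5 replicate 1 or 3 kept the call, and the other 10 gave an FDR of 0.065 to 0.16.

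Stat5b and Stat5a, the neighboring pair that relays IL-2 signals, passed in neither comparison of recipients. Stat5b held 276.5, 287.9 and 275.3 CPM in WT Day 3 and 256.1, 217.4 and 240.2 CPM in Il6-/- Day 3. All Il6-/- libraries were lower, as for 15.7% of all genes on that day, and Il6-/- Day 3 replicate 2 was the lowest of all 12 libraries. The test missed the threshold (edgeR, FDR = 0.051), and it passed in 3 of 12 fits with a library left out and in 8 of 11 fits under another scaling, filter, tool or design. On Day 5 Stat5b held 259.7, 265.7 and 257.2 CPM in WT and 248.2, 254.7 and 227.4 CPM in Il6-/- (log2FC −0.10 ± 0.075, FDR = 0.51), again with all Il6-/- libraries lower, as for 11% of all genes on that day.

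Stat5a passed no comparison, although alternatives called it between days. It held 133.1, 133.7 and 131.9 CPM in WT Day 3 and 139.1, 125.9 and 127.5 CPM in Il6-/- Day 3, with a log2FC of −0.02 ± 0.086 and a 95% confidence interval of −0.21 to 0.16. On Day 5 it held 120.3, 137.7 and 143.2 CPM in WT and 136.9, 163.2 and 143.7 CPM in Il6-/-. These libraries overlapped, and the log2FC was 0.15 ± 0.086 (FDR = 0.38). Between days Stat5a gave a log2FC of 0.01 ± 0.086 in WT recipients (FDR = 0.94) and one of 0.18 ± 0.086 in Il6-/- recipients (FDR = 0.088). The latter passed with upper-quartile scaling (0.40, FDR = 0.00057), without scaling (0.33, FDR = 0.0057) and with limma-trend on the deposited table (0.22, FDR = 0.026), and the former with upper-quartile scaling (0.21, FDR = 0.044).

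Stat6, the IL-4 effector that drives Th2 commitment, passed no comparison. It held 262.4, 283.8 and 272.9 CPM in WT Day 3 and 298.2, 272.3 and 288.8 CPM in Il6-/- Day 3. The Day 5 libraries held 271.8, 266.0 and 238.4 CPM in WT and 262.8, 274.5 and 227.2 CPM in Il6-/-. The libraries overlapped in each of the 4 comparisons. The log2FC between recipients was 0.07 ± 0.083 on Day 3 and −0.02 ± 0.083 on Day 5, with 95% confidence intervals of −0.11 to 0.25 and −0.20 to 0.16, so these data leave room for a change of Stat6 of up to about that size. Between days Stat6 gave a log2FC of −0.08 ± 0.083 in WT recipients (edgeR, FDR = 0.44) and one of −0.17 ± 0.083 in Il6-/- recipients (FDR = 0.092). The latter passed without a low-count filter (−0.23, FDR = 0.046) and without Il6-/- Day 5 replicate 2 (−0.21, FDR = 0.042).

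**Figure D3:**
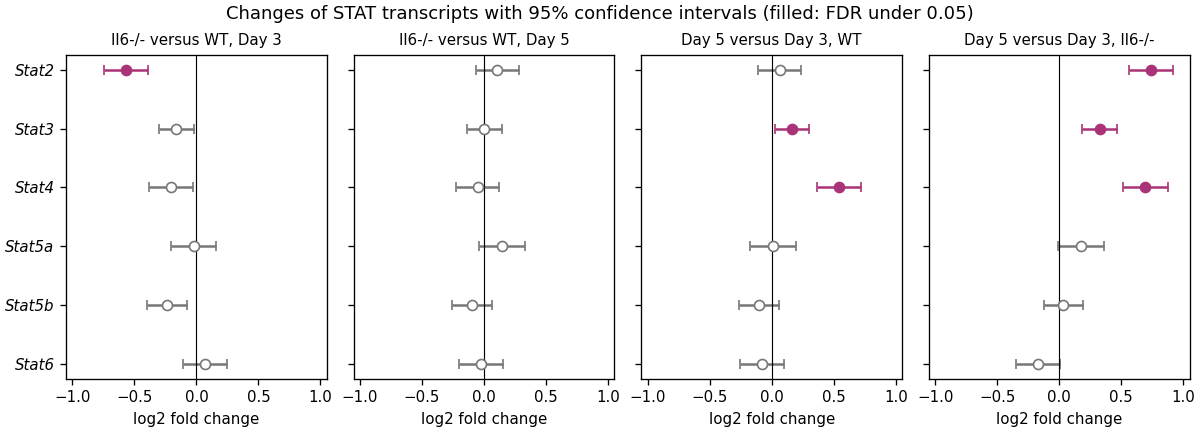
Log2 fold change of each member (rows) in the 2 comparisons of recipients and the 2 comparisons of days (panels), with 95% confidence intervals. Filled points passed an FDR of 0.05. Stat2 is the filled point at −0.56 in the first panel, and Stat2, Stat3 and Stat4 are filled in the last.

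Ratios of members within a library do not depend on how libraries are scaled. With 3 libraries against 3, the exact permutation test (two-sided, 20 labelings) cannot give a p under 0.1. Lack of overlap is common: between recipients on Day 3 it held for 36.2% of single genes. From Day 3 to Day 5, 33.4% of genes in WT and 33.1% in Il6-/- were higher without overlap. The share among ratios of other genes was not computed. Per kilobase, Stat3 amounted to 0.799 to 0.824 times the sum of Stat5a and Stat5b in WT Day 3 and to 0.756 to 0.867 times in Il6-/- Day 3. Reads shared by Stat5a and Stat5b were not counted, so their sum may be too low and these values too high. The log2 ratio differed between recipients by −0.0075 on Day 3 (exact p = 0.8) and by −0.00024 on Day 5 (exact p = 1). It was higher on Day 5 than on Day 3 by 0.22 in WT and by 0.23 in Il6-/-, each without overlap (exact p = 0.1). The libraries of WT and Il6-/- recipients overlapped on both days.

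The ratio of Stat4 to Stat6 was lower in the Il6-/- libraries on Day 3, although neither gene passed alone (edgeR, FDR = 0.12 and 0.66). It was 0.159, 0.161 and 0.161 in WT and 0.120, 0.132 and 0.146 in Il6-/- Day 3, a log2 difference of −0.28 without overlap (exact p = 0.1). On Day 5 the difference was −0.03 with overlap (exact p = 0.9), and from Day 3 to Day 5 the log2 ratio was higher by 0.62 in WT and by 0.87 in Il6-/-. The ratio of Stat5a to Stat5b was 0.620, 0.598 and 0.617 in WT Day 3 and 0.699, 0.745 and 0.683 in Il6-/- Day 3. Its log2 difference was 0.21 on Day 3, without overlap (exact p = 0.1), and 0.25 on Day 5, with overlap (exact p = 0.2). Reads in the stretches shared by this pair were counted for neither gene.

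**Figure D4:**
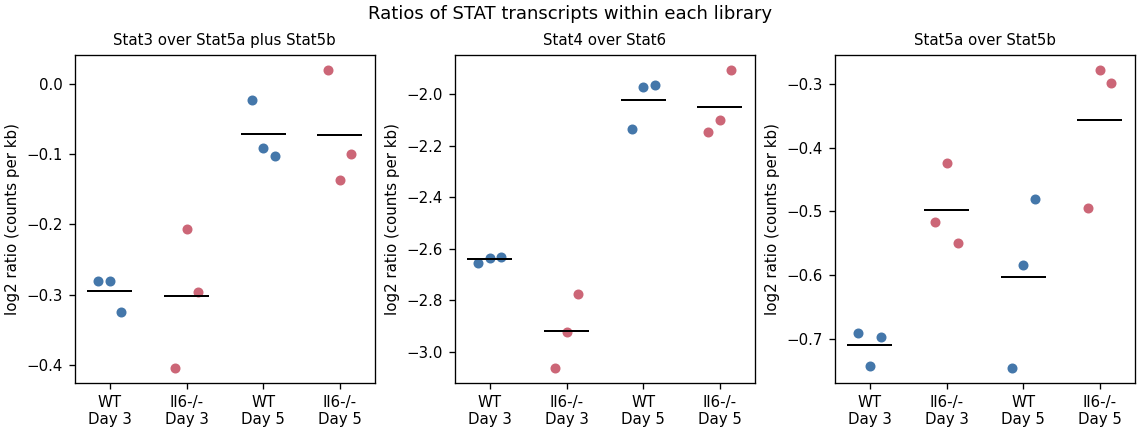
Log2 ratios of members within each library, per kilobase, in the 4 groups. Points are libraries (blue WT recipients, red Il6-/- recipients) and lines are means of 3. The first ratio lies at −0.30 and −0.29 in the Day 3 groups and at −0.07 in both Day 5 groups, and the axes do not start at 0.

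Genes that act before and after the STAT proteins were counted in lists written from general knowledge of the pathway, with earlier results of these data known. Their median log2FC is to be read beside that of all genes, 0.01 on both days. Of the receptor chains, 2 of 15 were lower in Il6-/- on Day 3 and 3 were higher (Il2ra, Il10ra and Il7r), beside 6.19% of all genes lower and 7.52% higher. The lower ones were Ifnar2, a chain of the type I interferon receptor (118 ± 5.87 CPM in WT and 80.7 ± 3.85 in Il6-/-, log2FC −0.55, edgeR FDR = 0.00035), and Il6ra, the IL-6-binding chain (91.2 ± 7.05 and 64.8 ± 4.26, log2FC −0.49, FDR = 0.0022). Ifnar1, the other interferon receptor chain, had a log2FC of −0.25 (FDR = 0.075), and Il6st, the shared signaling chain of the IL-6 family, one of −0.17 (FDR = 0.41). Ifnar2 was the one receptor chain that passed the interaction test (0.44, FDR = 0.033), and Il6ra was lower on Day 5 as well (log2FC −0.45, FDR = 0.0096). On Day 5, 3 chains were higher: Il10ra (0.67, FDR = 0.012), Il2rb (0.28, FDR = 0.037) and Il12rb1 (0.51, FDR = 0.047), so that 4 of 15 passed (0 to 4 with a library left out) beside 4.61% of all genes. The median log2FC of the 15 chains was 0.12 on Day 3. The count of 5 became 3 without WT Day 3 replicate 1.

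Among the 4 kinases, Jak2 (log2FC −0.41, edgeR FDR = 0.015) and Jak3 were lower in Il6-/- on Day 3, beside 6.19% of all genes. Jak2 stood at 40.2 ± 0.493 CPM in WT Day 3 and 30.1 ± 2.27 in Il6-/- Day 3. Tyk2, which serves the interferon and IL-12 receptors, had a log2FC of 0.05 on Day 3 and was higher on Day 5 (0.36, FDR = 0.045), a call lost in 11 of 12 fits that left out a library. The Day 3 count of 2 kinases was 1 without Il6-/- Day 3 replicate 1 or 2, and 3 without any 1 of the Il6-/- Day 5 libraries. Of the 15 inhibitors, 1 was higher (Cish) and 2 were lower (Socs3 and Ptpn1) on Day 3, beside 7.52% of all genes higher and 6.19% lower. Ptpn1, a phosphatase that acts on JAK2 and TYK2, went from 371 ± 2.31 CPM in WT to 261 ± 7.60 in Il6-/- (log2FC −0.51, FDR = 0.00038). On Day 5, 1 inhibitor was higher and 3 were lower (2 to 4 passed with a library left out), beside 4.61% of all genes that passed. Among the lower, Socs1, which blocks JAKs downstream of interferon, had the smallest p (38.1 ± 8.68 and 18.6 ± 1.71 CPM, log2FC −1.03, FDR = 0.0028).

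The interferon-induced genes that depend on STAT2 were mostly lower beside Stat2 on Day 3. Of 12 genes tested 10 were lower in Il6-/- and none was higher, with a median log2FC of −1.50. Of all genes, 6.19% were lower and 7.52% higher on that day. Irf9, the partner of STAT2, went from 97.0 ± 5.40 to 71.6 ± 5.13 CPM (log2FC −0.44, edgeR FDR = 0.0028), and Irf7, an interferon regulatory factor, from 77.7 ± 7.33 to 26.8 ± 4.92 CPM (log2FC −1.53, FDR = 6.4e-06). Isg15 (−0.42, FDR = 0.081) and Bst2 (0.34, FDR = 0.058) did not pass. Without Il6-/- Day 3 replicate 2, 5 of the 12 passed, and with any other library left out 8 to 11 did. Several of these genes were scarce: Rsad2 stood at 3.79 ± 1.40 CPM in WT Day 3 and Oasl2 at 2.27 ± 0.472. On Day 5, 2 of the 12 were lower (Oas1a and Rtp4, fewer in 9 of 12 fits with a library left out), beside 4.61% of all genes that passed. The list median was then −0.34, and Irf9 had a log2FC of 0.12 (FDR = 0.48).

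The change between days of this list differed by genotype for 3 genes in the interaction test, all in the direction of Stat2: Irf7 (1.30, edgeR FDR = 0.0013), Irf9 (0.55, FDR = 0.017) and Rsad2 (2.30, FDR = 0.044). Of all genes, 1.8% passed in that direction. Within Il6-/- recipients 9 of the 12 rose from Day 3 to Day 5 and Bst2 fell (log2FC −0.68, FDR = 0.00011), beside 30.4% of all genes that rose. Within WT 2 of the 12 rose and none fell, beside 29.5% of all genes that rose. The ISRE core printed for Stat2 occurred in the promoters of 6 of the 9 list genes for which a promoter was listed (Isg15, Ifit1, Ifit3, Oas1a, Rsad2 and Bst2). Of all 27025 genes with a listed promoter, 3.46% held it. Among the list genes with the core, Isg15 and Bst2 did not pass on Day 3. The part of the core in these changes was not tested.

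Genes associated with the other members showed other counts. Of 10 STAT3-induced genes 6 were lower in Il6-/- on Day 3 (median log2FC −1.01) and 4 on Day 5 (median −0.20, 1 to 4 with a library left out). Of all genes, 6.19% were lower on Day 3 and 4.61% passed on Day 5. Bcl6, which directs follicular helper cells, was lower on Day 3 (log2FC −1.15, edgeR FDR = 0.00038) and had a log2FC of −0.04 on Day 5. The transcript of Stat3 itself passed on neither day. Of 10 STAT5-induced genes 4 were higher on Day 3 (median 0.91), beside 7.52% of all genes. On Day 5, 2 were higher (median 0.31, 1 or 2 with a library left out), beside 4.61% of all genes that passed. Lta, encoding lymphotoxin alpha, rose on Day 3 from 42.7 ± 1.17 to 89.3 ± 10.7 CPM (log2FC 1.06, FDR = 1.3e-05), while neither Stat5a nor Stat5b was higher. 

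Of 7 tested STAT4-associated genes 1 passed on Day 3 (1 to 3 with a library left out), a share close to the 13.7% of all genes, and the list median was −0.32. The gene that passed was higher: Tbx21, the Th1 master regulator (2.56 ± 0.210 and 14.4 ± 2.14 CPM, log2FC 2.49, edgeR FDR = 8.7e-05). The log2FC was 2.04 for Ifng, −1.59 for Il18r1 and −0.88 for Il18rap, and none of these passed (FDR = 0.052 to 0.078). These transcripts were scarce. In WT and Il6-/- Day 3, Ifng stood at 0.233 and 0.984 CPM, Il18r1 at 1.47 and 0.492, and Il18rap at 3.95 and 2.15. Of 4 tested STAT6-associated genes Gata3, the Th2 master regulator (169 ± 1.28 and 214 ± 15.6 CPM, log2FC 0.34, FDR = 0.023), and Ccr8 (0.75, FDR = 0.014) were higher on Day 3, beside 7.52% of all genes. Il4 was measured at 6.91 ± 0.558 and 4.42 ± 3.12 CPM (FDR = 0.43), and Il5, Il13 and Il24 fell under the low-count filter. The 2 calls of this list became 0 without WT Day 3 replicate 2 or Il6-/- Day 3 replicate 1, and 1 without WT Day 3 replicate 1 or 3 or Il6-/- Day 3 replicate 3. Cish, Il2ra, Il4ra, Il12rb2 and Socs3 each stand in more than 1 list.

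**Figure D5:**
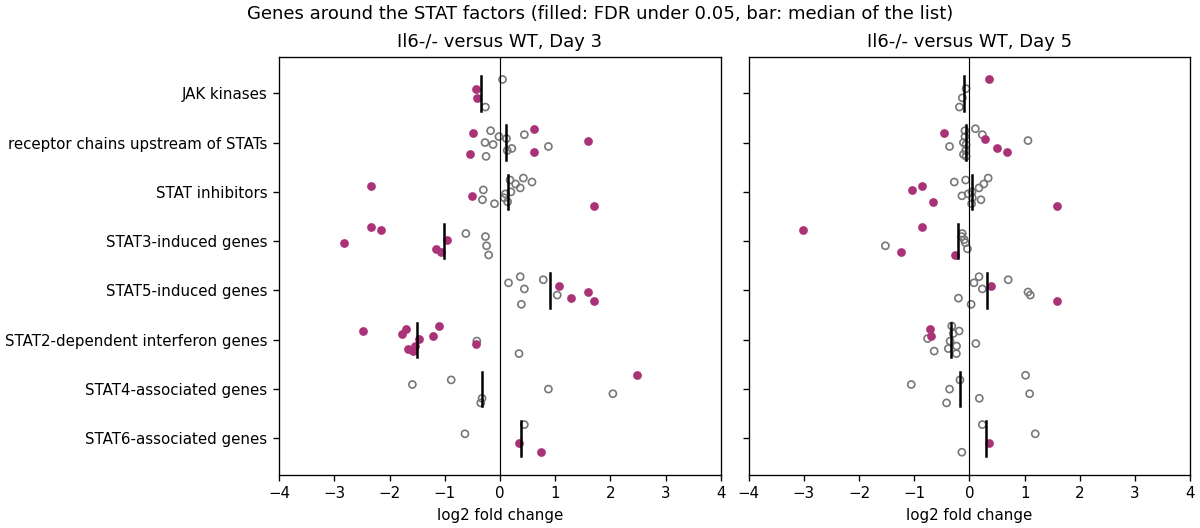
Log2 fold change of Il6-/- against WT on Day 3 (left) and Day 5 (right) for genes around the STAT proteins, 1 row per list. Points are genes, filled where the FDR is under 0.05, and bars are list medians. The STAT2-dependent interferon genes have a median of −1.50 on Day 3 and −0.34 on Day 5.

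For each member the 3 genes with the most similar profile were found by the root mean square difference of log2 CPM, centered on the mean of the 12 libraries. For Stat2 these were Scarb2, a lysosomal membrane protein (0.107), Ptpn1 (0.109) and Jak3 (0.113), against a median of 0.510 over all genes. Scarb2 stood at 42.8, 30.5, 49.7 and 49.1 CPM in WT Day 3, Il6-/- Day 3, WT Day 5 and Il6-/- Day 5. No interferon-induced gene of the list was among the 3. The measure counts the size of a change as well as its shape, and the list median on Day 3 was −1.50 against −0.56 for Stat2. Their absence therefore cannot tell whether they varied along with Stat2. Profiles closest to Stat3 were those of Septin6, Rnf31 and Ly9 (0.0423 to 0.0563), and closest to Stat4 were Susd6, Laptm5 and Ptk2b (0.0542 to 0.0720). For Stat5a they were Cers2, Trrap and Dnajc5, and for Stat6 Hmox2, Pak2 and Abcf3, all at 0.0497 to 0.0708. Likeness over 12 libraries that share 2 days and 2 genotypes is a description and was not tested.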

How the data were processed

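Poly(A) RNA of sorted OTII cells from 12 samples (4 groups of 3) was sequenced by the authors from ultra-low-input libraries as single 50-base reads. Per the labels and the methods of the study, reads were trimmed with Trim Galore 0.4.4, aligned to GRCm39 with STAR 2.5.2a and counted on genes with HTSeq 0.6.1p1 without strand. The deposited files hold raw counts for 40840 gene symbols per library. The authors also deposited log2 CPM values for 11258 genes, which were recomputed from the counts to within 5e-14 (prior count 0.25) and used only as an alternative.

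The analysis of these counts used edgeR 4.0.16 (R 4.3.3): filterByExpr on the 4 groups kept 13570 genes (33.2%), libraries were scaled by TMM, and 1 quasi-likelihood model with a coefficient per group gave each comparison (median biological coefficient of variation 0.132). P-values were adjusted over all genes tested by Benjamini-Hochberg, and FDR under 0.05 was called; the study's further limit of 2-fold is counted beside it. Fold changes are log2 with their SE. CPM use TMM-scaled library sizes, and their per-kilobase values the Ensembl canonical transcript of GENCODE vM39, since the annotation file of the authors was not used here. Multiply aligned reads (23.7% to 28.2%) and ambiguous reads (1.96% to 2.28%) had not been assigned to genes. Sequence matches and alignments used Python 3.11.15 and Biopython 1.88. On simulated counts for the Day 3 comparison of 13244 genes, 31.4% of genes changed by 0.5 and 64.1% of genes changed by 1 on the log2 scale were called, and 0.0383% of unchanged genes. Only 105 genes were changed by 0.5 and 92 by 1, a far smaller share than the 13.7% called in the data. The genes changed were drawn from all levels. These rates therefore do not give the power for the members.

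Samples with the same replicate number were checked for shared deviations from their group means. The correlations were 0.129 to 0.243 between recipients on Day 5, so an alternative fit took the numbers as pairs, and it changed no call of a member on that day. The Day 5 values given above are from unpaired tests. The correlations were 0.0325 to 0.0599 on Day 3 and −0.071 to 0.0707 between days, so no pairing was assumed there. On Day 3, however, each of 6 samples correlated best with its own number. No 2 replicates agreed within sampling noise.

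Named genes are the 6 members, genes whose exons overlap theirs, the 3 most similar profiles per member, and genes of 8 pathway lists, of which those with a role closest to a member or the smallest p are named. The members, lists and tests were chosen with earlier results of these data known, and list choices for naming were made after values were seen. The profiles most similar to Stat5b are not reported here. Alternatives were RLE, upper-quartile and no scaling, 2 other filters, DESeq2 1.42.0, limma-voom and limma-trend (limma 3.58.1), a replicate block, the 6 libraries of a day or genotype alone, each library left out, summed counts of overlapping members, and other lengths for ratios.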

Additional observations from a re-analysis of the deposited data

Results flagged for a closer look

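The difference between recipients changed with day for Stat2: the Day 5 log2 difference minus the Day 3 difference was 0.67 ± 0.12 (SE; edgeR interaction test, FDR = 0.0079). It drew attention because the effect of the recipient genotype differed between the 2 days in a direct test. On Day 3 all 3 Il6-/- libraries (29.8 to 30.6 CPM) lay below all 3 WT libraries (43.1 to 47.3 CPM), and on Day 5 all 3 Il6-/- libraries (47.6 to 53.1 CPM) lay above all 3 WT libraries (46.3 to 46.9 CPM). Of all genes, 15.7% were lower without overlap on Day 3 and 8.65% higher without overlap on Day 5. The interaction passed in 22 of 22 other settings, with values from 0.63 to 0.77 and FDR up to 0.027. Over the same groups the NK and CD8 T-cell markers summed to 66.0 to 76.5 CPM in WT Day 3, 105 to 137 in Il6-/- Day 3, 94.7 to 115 in WT Day 5 and 108 to 123 in Il6-/- Day 5, and Klrb1c (4.82 to 20.9 CPM) and Nkg7 (3.67 to 22.7 CPM) were the markers that were higher in Il6-/- Day 3. The interaction of Klrb1c was −2.70 (edgeR FDR = 0.00017), and the other 4 tested markers did not pass it. On Day 5 Nkg7 was still higher in Il6-/- (4.99 and 18.9 CPM, log2FC 1.92, FDR = 0.0022), whereas Klrb1c was lower (33.1 and 21.9 CPM). The part of these markers in the result was not tested.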

How the results depend on the processing

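The Day 3 call of Stat2, its interaction, the rise of Stat4 in both genotypes and the rise of Stat2 and Stat3 in Il6-/- recipients held under each alternative run. The count of members called on Day 3 (1) was 2 with upper-quartile scaling, the filter of more than 1 CPM in 3 libraries, DESeq2, limma-voom, the deposited table and the replicate block within each day, and 3 without scaling and in the 6 libraries of the day. Stat5b was the member gained in each of these fits, and Stat3 where 3 were called. With the replicate block within each day, Stat5b on Day 3 had a log2FC of −0.24 (FDR = 0.023); on Day 3 each of 6 samples correlated best with its own number, a hint from the data only, and between days 2 and 0 of 6 did. The block across the 4 groups changed no count of members called (1, 0, 2, 3 and 1 over the comparisons). In the WT day comparison the count of 2 was 1 with RLE scaling, no low-count filter, DESeq2 and the 6 libraries of the genotype, each time because Stat3 was lost, and 4 with upper-quartile scaling, which also gave 5 in Il6-/-. Upper-quartile scaling shifted the median log2FC of all genes by 0.20 in WT and 0.23 in Il6-/- between days, and no scaling shifted it by 0.15 in Il6-/-. The share of calls that were higher went from 52.1% to 66.5% in WT and from 50.2% to 65.0% in Il6-/- with upper-quartile scaling (60.4% without scaling in Il6-/-), from 54.9% to 44.8% with upper-quartile scaling and 39.3% without scaling on Day 3, from 27.5% to 40.8% without scaling on Day 5, and from 36.5% to 47.2% and 64.8% in the interaction.

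With each library left out, the members called numbered 1 to 3 on Day 3, 0 on Day 5, 1 to 2 in WT and 3 to 4 in Il6-/- between days, and 1 in the interaction. On Day 3 the count was 2 without Il6-/- Day 3 replicate 1 or 3 or Il6-/- Day 5 replicate 3, and 3 without Il6-/- Day 5 replicate 2. The count in WT was 1 without any of 10 libraries, the exceptions being Il6-/- Day 5 replicates 1 and 3.

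Differences close to 0 changed sign. With RLE scaling Stat6 on Day 5 became 0.0031 and Stat5a in the WT day comparison −0.0241; with DESeq2 they were 0.0030 and −0.0241. Upper-quartile scaling gave −0.0037 for Stat3 on Day 5, 0.0940 for Stat5b and 0.12 for Stat6 between days in WT, and 0.0585 for Stat6 in Il6-/-. No scaling gave 0.0238 for Stat6 on Day 5 and 0.0092 for its interaction. Without a low-count filter Stat2 and Stat5a in WT were −0.0024 and −0.0587 and Stat5b in Il6-/- was −0.0261 between days. Stat3 on Day 5 was −0.00439 in the deposited table and −0.00691 in the 6 libraries of the day, and Stat5a was −0.0195 in the 6 libraries of WT. Summed counts of Stat5a and Stat5b gave −0.0119 on Day 5 and −0.0651 between days in WT, and −0.16 (FDR = 0.16) on Day 3. With a library left out, sign changes occurred within ranges of −0.0277 to 0.0521 for Stat3 and −0.0766 to 0.0558 for Stat6 on Day 5, −0.0685 to 0.0068 for Stat5a on Day 3, −0.0459 to 0.0771 for Stat5a in WT and −0.0340 to 0.0845 for Stat5b in Il6-/- between days. None of the reversed values passed (lowest FDR 0.22).

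The log2 ratio of Stat3 to Stat5a plus Stat5b between recipients became 0.0050 on Day 3 and 0.0145 on Day 5 without division by length, and 0.00540 and 0.0150 by coding length, a choice added after seeing the data. With a library left out, this ratio ranged from −0.0555 to 0.0433 on Day 3 and −0.0462 to 0.0322 on Day 5, and that of Stat4 to Stat6 from −0.352 to −0.209 and −0.0991 to 0.0216. For the lists, the STAT4-associated genes gave 2 calls on Day 3 with upper-quartile and no scaling and 1 on Day 5 with RLE and no scaling, the STAT6-associated genes 1 on Day 3 without scaling and 2 between days in WT with upper-quartile scaling, and the STAT2-dependent genes 1 on Day 5 without scaling and 4 between days in WT with upper-quartile scaling. Leaving out libraries, added for lists after seeing the data, gave on Day 3 1 to 3 JAK kinases, 3 to 7 receptor chains, 5 to 11 STAT2-dependent, 1 to 3 STAT4-associated and 0 to 3 STAT6-associated genes, and on Day 5 0 to 1 JAK kinases, 0 to 4 receptor chains, 2 to 4 inhibitors, 1 to 4 STAT3-induced, 1 to 2 STAT5-induced, 0 to 2 STAT2-dependent, 0 to 1 STAT4-associated and 0 to 2 STAT6-associated genes. The cause of these changes was not tested.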
